A study of Mus musculus with 41 samples.

Results

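Runx2, the runt-domain transcription factor required for osteoblast formation, was forced into 3T3 fibroblasts, and its binding there after 3 days of osteogenic medium was set against its binding in osteoblasts. Every peak of both lists was taken: 50180 peaks from the 3T3 cells and 10241 from the osteoblasts, 60421 of the 155773 peaks in the 8 lists of the series. An osteoblast peak was called reached when at least 1 bp of it was covered by a 3T3 peak, and missed otherwise. The peaks were then described by overlap with Jun, by place in the list and by grouping into domains.

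The osteoblasts came from the calvaria of C57BL/6 mice at postnatal day 1 that carried 1 knock-in allele of biotin- and FLAG-tagged Runx2 (Runx2-BioFL/+), so the tagged protein was made from its own locus. Their single list stands for 2 libraries, and no source used here says whether these were pooled before peaks were called. The 3T3 cells overexpressed the same tagged form (Runx2BioFL) and had been kept for 3 days in osteogenic medium (BMP-2, recombinant human, at 100 ng/ml; β-glycerophosphate at 10 mM; ascorbic acid phosphate at 50 µg/ml), and they gave 1 library. Cell type, source of Runx2, its amount and the medium all differ between the lists and cannot be told apart. The other lists were Jun in wild-type calvarial osteoblasts of postnatal day 1 (1 library), tagged Runx2 in knock-in rib chondrocytes of postnatal day 1 (2 libraries, 1 list), Foxa2 in wild-type rib chondrocytes of the same age (1 library), and FLAG immunoprecipitates from 3T3 cells with GFP at day 0 and from the remaining pair of 3T3 samples. For that pair the labels were crossed: the Runx2 day 0 sample cites a list named for GFP day 3, and the GFP day 3 sample cites a list named for Runx2 day 0. Each is called by the name of its list below. By its title that GFP day 3 sample had the same medium for 3 days as the Runx2 day 3 cells.

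Runx2 binds a short DNA motif through its runt domain, together with its partner CBFβ, and in calvarial osteoblasts it acts at enhancers and promoters of bone matrix genes. Jun is a subunit of AP-1, a dimer of basic leucine zipper proteins found at enhancers of many cell types, fibroblasts included. Foxa2 is a forkhead factor of hypertrophic chondrocytes. 3T3 fibroblasts are a mouse embryonic line that does not normally form bone.

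The lists hold positions only, with no height, score or read count, so read depth is unknown, and the order of lines is the only rank at hand. What set that order is not stated. Each group has 1 list, so there is no spread between replicates and no test between samples. Shares carry Wilson 95% intervals, and contrasts are odds ratios with 95% intervals, pooled by the Mantel-Haenszel method over 10 equal parts of the file order so that peaks of like rank are compared. These intervals cover counting error only, and peaks of 1 list are not independent samples of a condition.

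Forced Runx2 covered most osteoblast sites, but most of its own sites lay elsewhere. Of the 10241 osteoblast peaks, 5990 (58.5%, interval 57.5 to 59.4) were reached and 4251 (41.5%) were missed. Read from the other side, 7088 of the 50180 3T3 peaks (14.1%, interval 13.8 to 14.4) overlapped an osteoblast peak. The 3T3 list was 4.90 times as long as the osteoblast list. Cut to its first 10241 peaks, it reached 31.9% of the osteoblast peaks, and 39.4% of those 3T3 peaks were osteoblast peaks. With the wider 50% of each list the shares were 29.7% of osteoblast and 7.07% of 3T3 peaks. Among the other lists, the day 3 peaks covered 52.7% of 15390 chondrocyte Runx2 peaks, 38% of 14937 osteoblast Jun peaks and 10.8% of 14738 chondrocyte Foxa2 peaks.

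Where the lists met, the peaks lay close to each other. A single 3T3 peak covered 5051 of the reached peaks (84.3%), and 2 or more covered 939. The median overlap was 124 bp, against median widths of 186 bp in the osteoblast list and 213 bp in the 3T3 list, and the median distance between centres was 52.5 bp. Reached peaks had a median width of 187 bp (quartiles 141 and 258) and missed peaks of 185 bp (140 and 246), so width did not separate them.

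Place in the osteoblast list went with reach. In the first 1025 peaks of the file 819 were reached (79.9%, interval 77.3 to 82.2), and in the last 1024 only 400 were (39.1%, interval 36.1 to 42.1). Between these ends the share fell at each step: 76.8, 69.8, 64.2, 60.5, 54.7, 50.0, 49.0 and 40.9%. The first 5121 peaks were reached at 70.2% and the later 5120 at 46.7%, an odds ratio of 2.69 (2.48 to 2.92) that was above 1 on 20 of 20 chromosomes. It was 5.50 (5.01 to 6.05) with the first 10241 3T3 peaks, 1.72 (1.52 to 1.94) with the wider 50% of each list and 1.29 (1.12 to 1.49) without peaks of the GFP day 0 list or the list named for Runx2 day 0. Ranking by peak width in place of file order gave 1.03 (0.953 to 1.11). The first 1025 peaks also held more Jun (49.8%, against 14.8% in the last 1024), which is why the Jun contrast is made within parts. Other lists moved with file order too. Chondrocyte Runx2 overlapped 71.5% of the first 1025 and 30.3% of the last 1024, and either list named for GFP 64.8% and 2.83%. Without peaks of either list named for GFP, the odds ratio by file order was 1.92 (1.76 to 2.10).

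**Figure D1:**
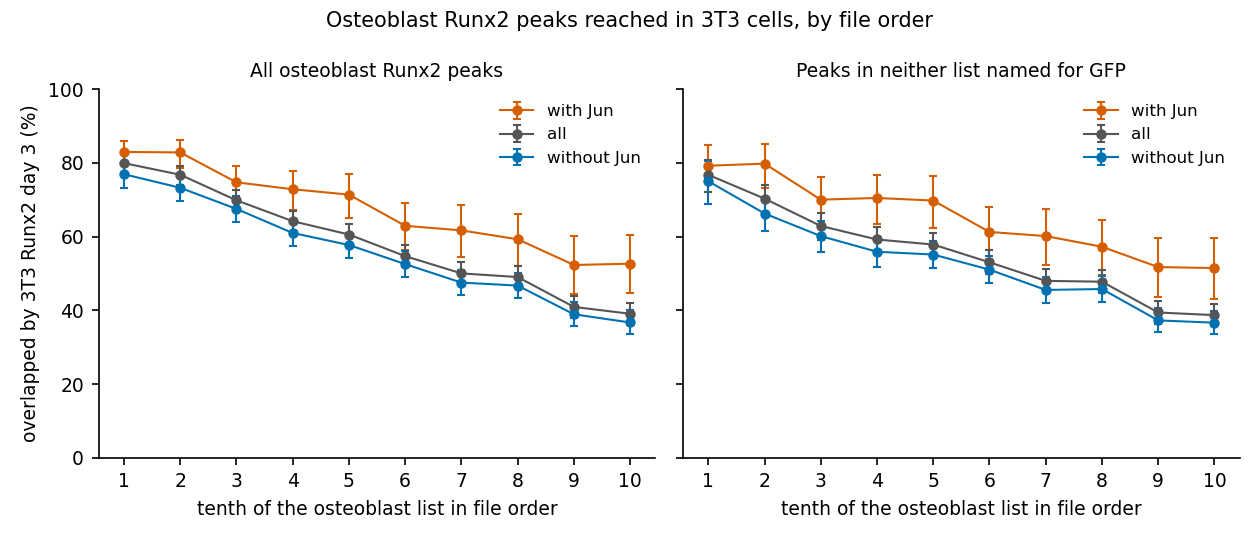
Share of osteoblast Runx2 peaks overlapped by a 3T3 Runx2 day 3 peak (%, vertical) in 10 equal parts of the osteoblast list in file order (horizontal), for all peaks (left) and for peaks in neither list named for GFP (right); bars are Wilson 95% intervals. The share of all peaks runs from 79.9% in the first part to 39.1% in the last, and peaks with Jun lie above peaks without Jun in every part.

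The same order held in the 3T3 list. Of the first 5018 3T3 peaks 50.2% (interval 48.8 to 51.6) were osteoblast peaks, of the next 5018 29.4%, and of the last 5018 2.89% (2.46 to 3.39). Over the 5990 reached peaks, the place in the osteoblast list and the best place among the covering 3T3 peaks had a Spearman rho of 0.489, given as a description across peaks. The median 3T3 position was 5564 for reached peaks of the first 5121 and 15867 for those of the later 5120.

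**Figure D2:**
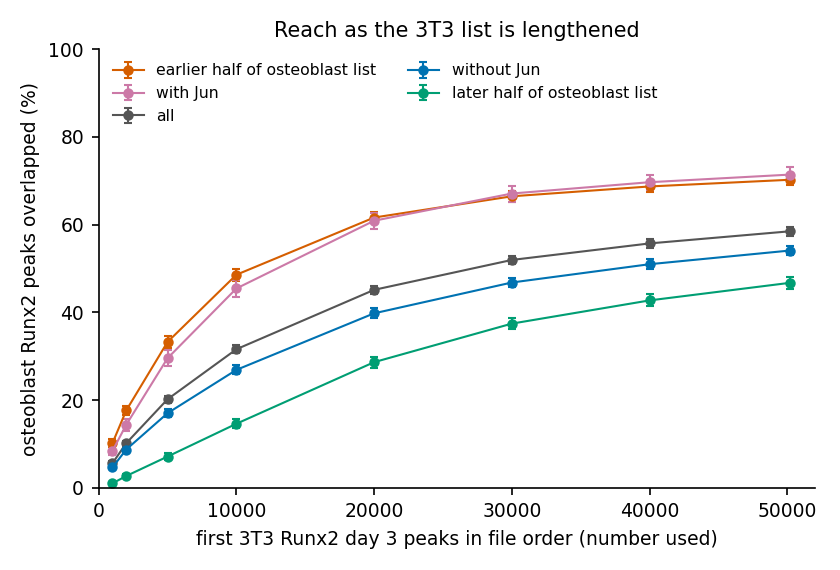
Osteoblast Runx2 peaks overlapped (%, vertical) when the first peaks of the 3T3 day 3 list in file order are used (number, horizontal), for all osteoblast peaks, peaks with and without Jun, and the earlier and later part of the osteoblast list; bars are Wilson 95% intervals. The first 10000 3T3 peaks reach 45.5% of peaks with Jun and 26.9% of peaks without, and the curves are still rising at the end of the list.

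The head of the osteoblast list did not follow this order (these groups of positions were chosen after their values were seen). Of its first 20 peaks 11 were reached (55%, interval 34.2 to 74.2), while 18 of the 20 lay in the GFP day 0 list and 20 in the chondrocyte Runx2 list. At positions 21 to 50 the reached share was 63.3% and the share in the GFP day 0 list 80%. At positions 51 to 100 these were 74% and 46%, at 101 to 200 77% and 28%, and at 201 to 500 83.7% and 17.3%. The peaks at the very top were therefore shared with FLAG precipitates of cells without tagged Runx2 more often than with forced Runx2 in the same cell line.

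The first 3 peaks in file order of each class give examples (mm9, positions counted from 1), and since the classes are set by reach and Jun they show nothing of how often either occurs. Among peaks reached with Jun, the first of the list was chr9:21754915-21755016, covered by 1 3T3 peak at position 12797 of its list with centres 11 bp apart. The second was chr15:72399086-72399206, covered by 2 3T3 peaks, the better at position 52, and the fourth was chr4:150978712-150978848, covered by a 3T3 peak at position 26364. All 3 lay in the chondrocyte Runx2 list and in the list named for GFP day 3.

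The first missed peaks with Jun were chr19:4989126-4989228 at position 3, chr15:77950294-77950445 at position 10 and chr4:139814975-139815105 at position 18. Their nearest 3T3 centres were 3393.5, 20528 and 278572 bp away, and all 3 overlapped the GFP day 0 list. Without Jun, the first reached peaks were chr4:136480589-136480699, chr11:118446258-118446352 and chr8:87471196-87471291 at positions 23 to 25. The first missed peaks without Jun were chr13:54852221-54852308, chr9:108729357-108729469 and chr15:76352670-76352755 at positions 7, 9 and 12, of which the last was in neither list named for GFP. Which genes these regions lie in is not given here, since the annotation at hand was of another genome build.

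Osteoblast sites with Jun were reached more often than sites without it. Jun overlapped 2596 of the 10241 osteoblast peaks (25.3%), and 1854 of these were reached (71.4%, interval 69.6 to 73.1), against 4136 of 7645 without Jun (54.1%, interval 53.0 to 55.2). Both shares are read against the 58.5% of all osteoblast peaks. The odds ratio was 2.12 (1.93 to 2.33) before and 1.66 (1.50 to 1.84) after pooling over file order. It was above 1 on 20 of 20 chromosomes and in 10 of 10 parts, where it ran from 1.42 to 1.92.

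Within an overlap, reach showed no order with the distance to the Jun centre. With Jun centres within 25 bp the reached share was 71.7% (interval 68.0 to 75.2), at 25 to 50 bp 73.3%, at 50 to 100 bp 68.6% and over 100 bp 72.8% (69.6 to 75.8), intervals that overlap each other. Outside an overlap the share was 65.3% with a Jun peak within 1 kb, 58.5% at 1 to 10 kb, 53.9% at 10 to 100 kb and 40.5% (37.99 to 43.07) beyond 100 kb. The file position moved with distance too, with medians of 4073, 6051, 5710 and 6306.5. Pooled over file order, the odds ratios against peaks beyond 100 kb were 2.25 (1.91 to 2.65) within 1 kb, 2.14 (1.84 to 2.50) at 1 to 10 kb and 1.68 (1.48 to 1.91) at 10 to 100 kb. Over 5 equal parts of the Jun list in file order the shares ran from 67.6 to 74.1%.

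The Jun contrast was not the same in peaks that overlapped a list named for GFP, most of which lay in the list named for GFP day 3 (2060 peaks, against 466 in the GFP day 0 list), 1 of the lists with crossed labels. In peaks of neither list named for GFP, 1067 of 1630 with Jun (65.5%) and 3160 of 6406 without (49.3%) were reached, an odds ratio of 1.71 (1.52 to 1.92). In peaks of either such list the counts were 787 of 966 (81.5%) and 976 of 1239 (78.8%), an odds ratio of 1.11 (0.896 to 1.38) that was above 1 on 10 of 20 chromosomes. The first odds ratio was 1.54 times the second (1.20 to 1.97). Because of the crossed labels a further reading was made, in which the list named for Runx2 day 0 stood for the GFP day 3 background. With its peaks and the GFP day 0 peaks removed, 19.95% of the remaining osteoblast peaks were reached, 4.09% of the remaining 3T3 peaks were osteoblast peaks, and the Jun odds ratio was 0.969 (0.797 to 1.18). The list named for Runx2 day 0 held 4882 of the 5990 reached peaks, so this reading takes out most of what was reached. Of its 31013 peaks 81.8% lay under a 3T3 Runx2 day 3 peak, against 41.9% for the list named for GFP day 3.

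Jun peaks themselves were reached according to osteoblast Runx2. Of 2633 Jun peaks with osteoblast Runx2, 1755 (66.7%, interval 64.8 to 68.4) overlapped a 3T3 Runx2 peak, against 3922 of 12304 without it (31.9%, interval 31.1 to 32.7), where 38% of all Jun peaks did. The odds ratio over parts of the Jun list was 4.22 (3.85 to 4.61). On 20 of 20 chromosomes the raw share was higher with osteoblast Runx2.

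Sites that Runx2 also held in chondrocytes were reached more often than sites it held in osteoblasts alone. Of 4625 osteoblast peaks in the chondrocyte Runx2 list 3475 were reached (75.1%, interval 73.9 to 76.4), against 2515 of 5616 outside it (44.8%, interval 43.5 to 46.1). On 20 of 20 chromosomes the raw share was higher inside that list. The odds ratio was 3.14 (2.88 to 3.43). It was 1.58 (1.37 to 1.83) with the wider 50% of each list and 1.53 (1.30 to 1.79) without peaks of the GFP day 0 list or the list named for Runx2 day 0. Taken whole, the 5616 osteoblast-only peaks were close in share to the 10782 chondrocyte-only peaks, of which 43.5% (interval 42.6 to 44.4) lay under a 3T3 peak. The odds ratio between these, osteoblast over chondrocyte, was 1.04 (0.971 to 1.11), pooled over 10 parts that each list had in its own file order. It was above 1 in 5 of the 10 parts and ran from 0.834 to 2.15.

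Jun and chondrocyte Runx2 together sorted the osteoblast peaks into 4 classes. With both, 1200 of 1486 were reached (80.8%, interval 78.7 to 82.7). With chondrocyte Runx2 alone, 2275 of 3139 were (72.5%, 70.9 to 74.0). With Jun alone, 654 of 1110 were (58.9%, 56.0 to 61.8), and with neither, 1861 of 4506 (41.3%, 39.9 to 42.7). No interval of these 4 overlaps another. The Jun odds ratio was 1.69 (1.47 to 1.94) outside the chondrocyte list and 1.32 (1.13 to 1.55) inside it, a ratio of 1.28 (1.04 to 1.57).

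**Figure D3:**
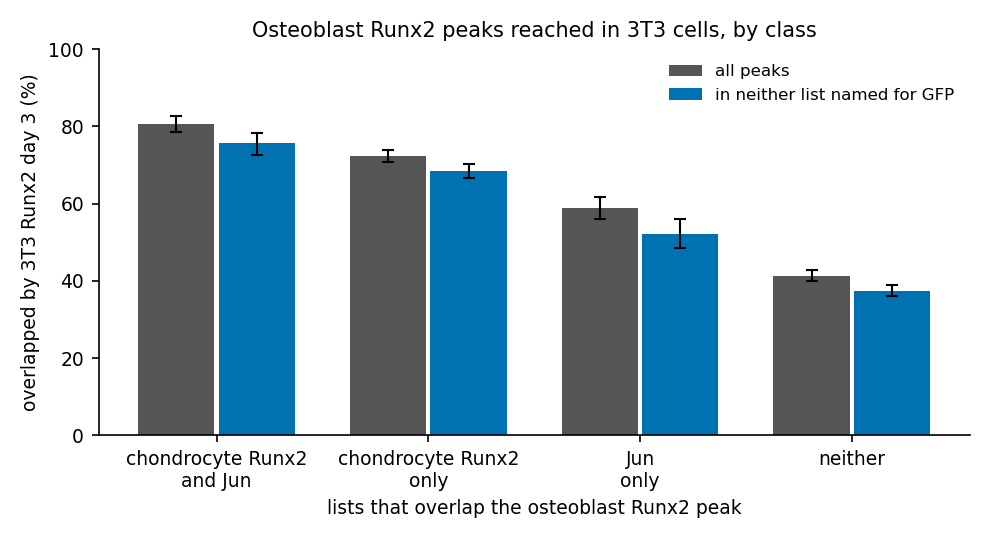
Osteoblast Runx2 peaks overlapped by a 3T3 Runx2 day 3 peak (%, vertical) in 4 classes by overlap with chondrocyte Runx2 and osteoblast Jun (horizontal), for all peaks and for peaks in neither list named for GFP; bars are Wilson 95% intervals. The share steps down from 80.8% with both to 41.3% with neither, and from 75.6 to 37.5% in peaks of neither list named for GFP.

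The order of the 4 shares was the same at both ends of the list, but intervals of neighbouring classes overlapped. In the first 1025 peaks they were 87.4% (interval 83.6 to 90.4), 81.2% (76.8 to 84.9), 71.0% (63.0 to 77.9) and 66.9% (59.1 to 73.8). In the last 1024 they were 60% (46.8 to 71.9), 52.9% (46.8 to 59.0), 48.5% (38.8 to 58.3) and 30.0% (26.5 to 33.7), where only the class with neither stood apart from the other 3. Of the missed peaks 61.0% overlapped none of the Jun, chondrocyte Runx2 and Foxa2 lists, against 30.5% of reached peaks. These 2 shares are not pooled over file order, where the median position was 6422 for missed and 4129.5 for reached peaks.

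Foxa2, which the osteoblast peaks met only 505 times, went the other way within sites common to both skeletal cell types. Of the 402 osteoblast peaks in the chondrocyte Runx2 and Foxa2 lists 60.0% were reached (interval 55.1 to 64.6), against 76.6% (75.3 to 77.8) of 4223 in the chondrocyte Runx2 list alone. The odds ratio was 0.583 (0.468 to 0.725), and the raw share was higher with Foxa2 on 0 of 20 chromosomes. Outside the chondrocyte Runx2 list, 38 of 103 peaks with Foxa2 were reached (36.9%, interval 28.2 to 46.5), with an odds ratio of 0.790 (0.524 to 1.19). The second odds ratio over the first was 1.36 (0.852 to 2.16). Over all osteoblast peaks the Foxa2 odds ratio was 1.04 (0.865 to 1.25).

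Seen from the 3T3 list, peaks that matched osteoblast sites overlapped osteoblast Jun peaks more often. Jun was mapped in osteoblasts, as was the Runx2 list that sets the match, and not in 3T3 cells. Of the 7088 matching peaks 2281 overlapped Jun (32.2%, interval 31.1 to 33.3), against 4300 of the 43092 others (9.98%, interval 9.70 to 10.3), where 13.1% of all 3T3 peaks did. The odds ratio was 4.28 (4.04 to 4.54) before and 2.08 (1.95 to 2.22) after pooling over the 3T3 file order, where it ran from 1.64 to 9.02 over the 10 parts. Without peaks of either list named for GFP the pooled value was 2.83 (2.60 to 3.09). Chondrocyte Runx2 covered 57.0% of the matching peaks and 12.1% of the others. Of the others 78.7% overlapped none of Jun, chondrocyte Runx2 and Foxa2.

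Matching 3T3 peaks also overlapped the list named for GFP day 3 more often, at 33.6% against 13.0%. Most of this went with file order, since the odds ratio was 3.39 (3.21 to 3.59) before pooling and 1.10 (1.03 to 1.17) after. The first matching peaks were chr17:87846371-87846548 at position 1 of the 3T3 list, chr5:125870167-125870247 at position 2 and chr17:87846387-87846589 at position 3, of which the first and last cover each other. The first peaks outside the osteoblast list were chr15:76181559-76181744 at position 10, chr16:4885814-4886126 at position 14 and chr19:5845884-5846055 at position 24. All 6 lay in the list named for GFP day 3 and were also held by the list named for Runx2 day 0. The first 2 that did not match overlapped osteoblast Jun.

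Missed did not always mean far. The median missed peak lay 7947.5 bp from the nearest 3T3 centre, 26.0% of missed peaks had one within 1 kb, 53.1% within 10 kb, and 14.7% had none within 100 kb. Missed peaks with Jun were nearer: 331 of 742 (44.6%, interval 41.1 to 48.2) had a 3T3 centre within 1 kb, against 775 of 3509 without Jun (22.1%, 20.7 to 23.5). These shares are not pooled over file order or 3T3 density. Missed peaks with Jun had a median of 5 other 3T3 peaks within 50 kb, and those without Jun 3. Missed peaks of the first 5121 had a 3T3 centre within 1 kb in 31.0%, and those of the later 5120 in 23.2%. Counting a centre within 1 kb as reached raised the share to 69.3% of all osteoblast peaks.

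**Figure D4:**
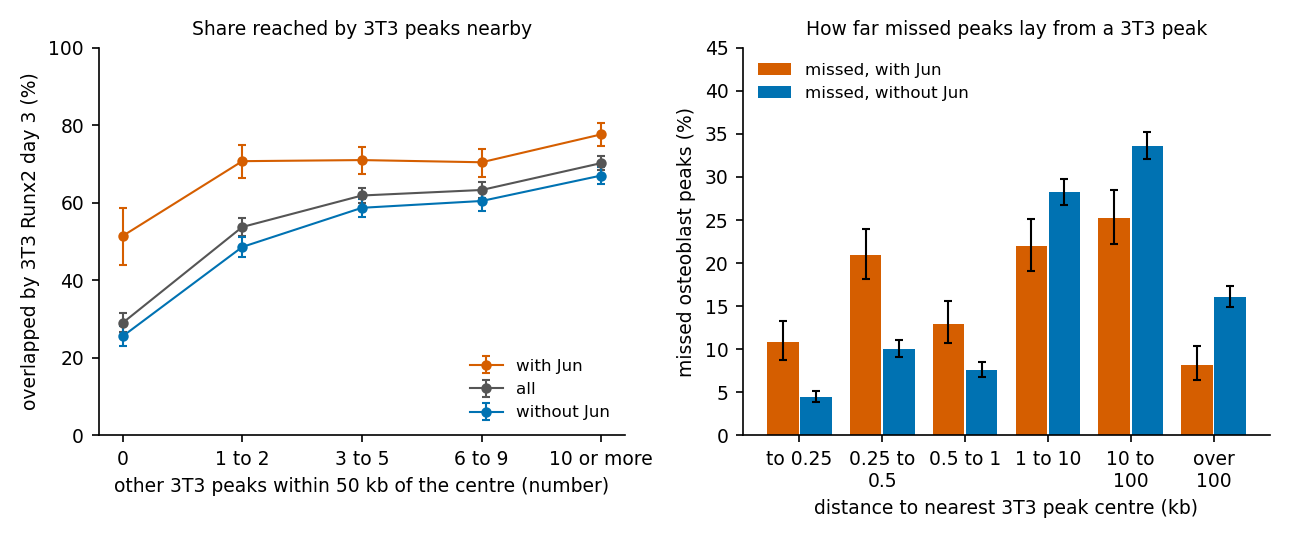
Left, osteoblast Runx2 peaks overlapped by a 3T3 Runx2 day 3 peak (%, vertical) by the number of other 3T3 peaks within 50 kb; right, missed osteoblast peaks (%, vertical) by distance to the nearest 3T3 centre (kb); bars are Wilson 95% intervals. With no other 3T3 peak nearby 51.4% of peaks with Jun and 25.5% without were reached, and with 10 or more 77.7% and 67.0%.

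Reached peaks lay in denser 3T3 surroundings. Leaving out the covering peaks, a reached peak had a median of 6 other 3T3 peaks within 50 kb (quartiles 3 and 10) and a missed peak 3 (quartiles 1 and 7). No other 3T3 peak lay within 50 kb of 381 reached (6.36%) and 933 missed peaks (21.9%). The reached share rose from 29.0% (interval 26.6 to 31.5) with none nearby to 53.8% with 1 to 2, 61.9% with 3 to 5, 63.3% with 6 to 9 and 70.2% (68.41 to 72.02) with 10 or more. Peaks with Jun were reached more in each of these 5 classes. Reach and surroundings are both counted from the 3T3 list, so the 2 are not independent. The shares are not pooled over file order. From none nearby to 10 or more, they ran from 43.0 to 77.7% in the first 5121 osteoblast peaks. In the later 5120 they ran from 19.9 to 62.0%.

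Whole chromosomes differed as well. The reached share ran from 44.6% (interval 40.1 to 49.2) on chromosome 13 to 71.1% (65.3 to 76.3) on chromosome 19, with a median of 59.4% over 20 chromosomes. As a description over these 20, the share had a Spearman rho of 0.759 with the number of 3T3 peaks per osteoblast peak, which was 3.95 on chromosome 13 and 7.40 on chromosome 19, and of 0.337 with the Jun share. The points come from the same 2 lists.

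Osteoblast peaks no more than 20 kb apart were joined into 7338 domains, of which 5488 held a single peak. Single peaks were reached at 58.0% (3183 of 5488) and peaks in domains of at least 3 at 59.3% (1371 of 2311). On 13 of 20 chromosomes the raw share was higher in domains of at least 3. The odds ratio was 1.12 (1.01 to 1.24). It was 1.06 (0.957 to 1.17) without pooling and 0.718 (0.638 to 0.808) when the number of other 3T3 peaks within 50 kb was added to the strata, so its direction rests on the method. In the 105 domains of at least 5 peaks 386 of 601 peaks were reached (64.2%, interval 60.3 to 68.0). Of those 105 domains 10 were reached at every peak and 2 at none.

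Neighbours went together. Where the nearest osteoblast neighbour within 20 kb was itself reached, 1830 of 2776 peaks were reached (65.9%, interval 64.1 to 67.7), and where it was missed, 965 of 1953 (49.4%, interval 47.2 to 51.6). The odds ratio was 1.94 (1.72 to 2.19), and the raw share was higher with a reached neighbour on 16 of 20 chromosomes. With the number of other 3T3 peaks within 50 kb added to the strata, the odds ratio was lower, at 1.35 (1.18 to 1.54). This contrast was chosen after the values were seen, and each pair of neighbours can enter it from both sides.

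Among the domains with most peaks, chr17:35945229-36016886 had all 10 of its osteoblast peaks reached, with 19 3T3 peaks inside, Jun at 5 of the 10 and chondrocyte Runx2 at 6. In it 6 of the 10 also lay in a list named for GFP. Both chr3:88292339-88325979 (24 3T3 peaks inside, Jun at 6 peaks) and chr14:70039101-70107469 (14 3T3 peaks, Jun at 3) had 7 of 10 reached. At chr2:166224814-166294850 and chr11:98786905-98825310 it was 5 of 9 in each, and at the first of these both ends differed, with 3 of the first 4 peaks missed and the last 3 reached. Fully reached domains by share were also chr12:106216371-106264755 with 8 of 8 and chr2:167391424-167423353 with 6 of 6.

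The lowest shares were at chr17:45435826-45476627 with 0 of 6, chr9:91245778-91260549 with 0 of 5 and chr18:55132729-55176306 with 1 of 8. None of the peaks in these 3 domains overlapped Jun, but the domains were picked for low reach. Jun overlapped 25.3% of all osteoblast peaks and 17.45% of all missed peaks. The first 2 domains held no 3T3 peak at all. On chromosome 9 the nearest 3T3 centre was 808990 to 823539 bp from each peak. The domain on chromosome 18 held 6 3T3 peaks, 5 of which fell between the osteoblast peaks.

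**Figure D5:**
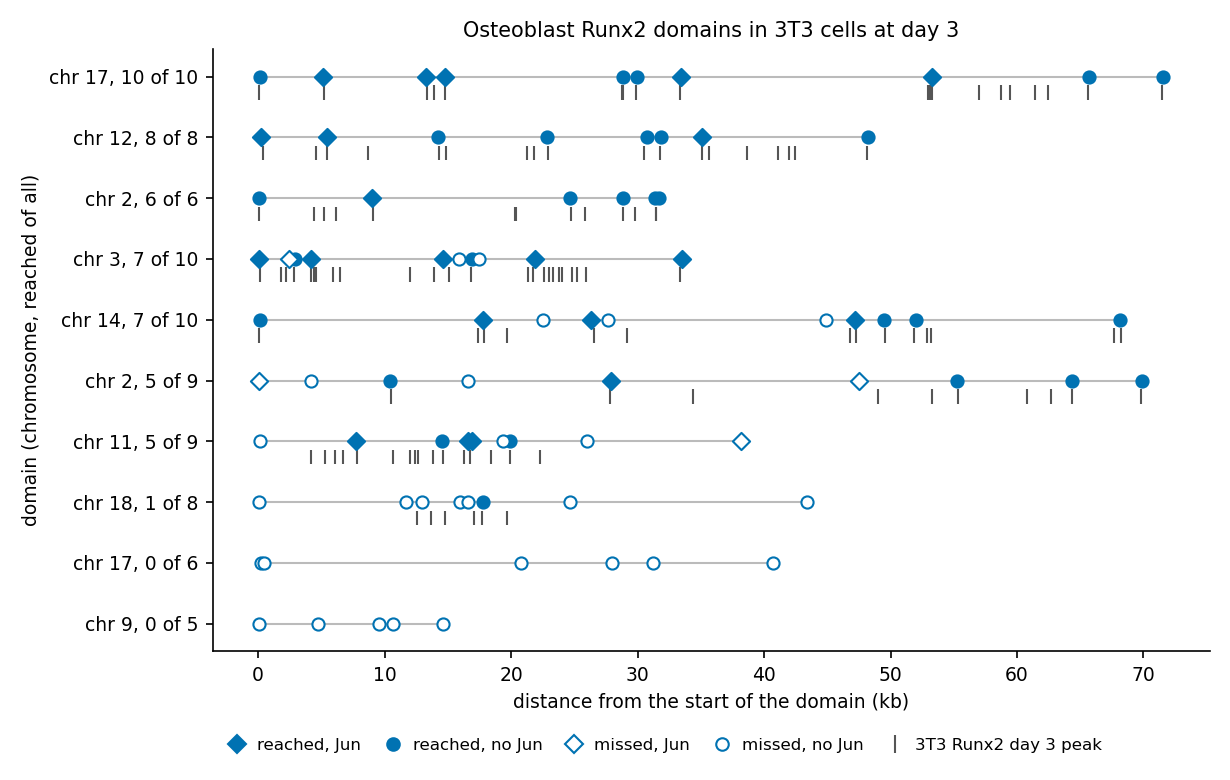
The 10 named osteoblast Runx2 domains, 1 per row and labelled by chromosome and reached peaks of all, drawn to scale from the domain's start (kb, horizontal); filled symbols are reached and open symbols missed osteoblast peaks, diamonds overlap Jun, and ticks are 3T3 Runx2 day 3 peaks. The bottom 2 domains hold no 3T3 peak, while the domain on chromosome 18 holds 6 with 1 of 8 osteoblast peaks reached.

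On the scale of 1 Mb, windows rich in osteoblast peaks were rich in 3T3 peaks, with a Spearman rho of 0.732 between the counts over 1791 windows. The windows with most osteoblast peaks had 18 of 29 (chr11:98000001-99000000), 19 of 27 (chr5:125000001-126000000) and 23 of 27 reached (chr7:52000001-53000000), among 102, 102 and 94 3T3 peaks. In the 336 windows of at least 10 osteoblast peaks the median share was 63.8%. It was under 25% in 8 of them, and 3 had no reached peak.

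The window with most missed peaks was chr17:45000001-46000000, with 20 of 24 missed. Jun overlapped 2 of the 24, against 25.3% of all osteoblast peaks, but the window was picked for its missed peaks. In its first 500 kb 14 of 15 peaks were missed and in the rest 6 of 9, although the window held 54 3T3 peaks. The window chr13:63000001-64000000 followed with 9 of 23 reached. At chr5:132000001-133000000 none of 14 osteoblast peaks was reached and no 3T3 peak was present.

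That window lay in a longer stretch without 3T3 binding, and stretches of at least 500 kb between neighbouring 3T3 peaks were then counted (chosen after the values were seen). There were 824, of which 306 held an osteoblast peak. They held 679 osteoblast peaks, 16.0% of all missed, with Jun at 10.8% and chondrocyte Runx2 at 23.0% of them. Over all missed peaks these shares were 17.45% for Jun and 27.05% for chondrocyte Runx2. The stretch with most was chr5:131329503-134596907, with 19 osteoblast Runx2, 13 Jun, 14 chondrocyte Runx2 and 32 Foxa2 peaks. It held 0 peaks of the list named for Runx2 day 0, 0 of GFP day 0 and 1 of the list named for GFP day 3. The stretches chr8:98412431-106513741 with 15 and chr16:70314722-75767197 with 12 osteoblast peaks came next, and the list named for Runx2 day 0 had 1 and 0 peaks in them.

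The list named for Runx2 day 0 held most of the same osteoblast sites. Of the 5990 reached peaks 4882 (81.5%, interval 80.5 to 82.5) were also in it, and it held a further 568 of the 4251 missed peaks (13.4%, interval 12.4 to 14.4). Thus 3683 osteoblast peaks (35.96%) were in neither. Jun overlapped 33.3% of the peaks in both, 20.7% of those in the day 3 list alone, 27.5% of those in the day 0 list alone and 15.9% of those in neither. For chondrocyte Runx2 these shares were 63.2, 35.3, 45.6 and 24.2%. By the labels the list named for Runx2 day 0 belongs to a GFP sample, so it is not called an earlier time of Runx2 binding here.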

How the data were processed

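The authors deposited 1 peak list per ChIP-seq group, with chromosome, start and end and no other value, as the deposited files show. Positions are of mm9, and the tools named are Bowtie and DiffBind, with no role or version, per the submitters' processing notes. How peaks were called, at which threshold and against which control, is not given in the sources used here. ATAC-seq, input and IgG samples were not analysed here, and 41 samples fall in 24 groups.

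Overlaps (at least 1 bp), Wilson intervals, odds ratios (Woolf) and Mantel-Haenszel odds ratios (Robins-Breslow-Greenland) over 10 equal parts of file order were computed with Python 3.11.15, NumPy 2.4.6, SciPy 1.17.1 and pandas 2.3.3, checked with bedtools 2.31.1 and tested on simulated data. A contrast counts as a difference when its 95% interval leaves out 1. Regions named are the first 3 peaks in file order of each class, the 5 domains (gaps of at most 20 kb) with most peaks, the 3 with the highest and the 3 with the lowest reached share among those of at least 5 peaks, and the 3 windows of 1 Mb with most peaks and with most missed peaks. The members, contrasts and rules were chosen with earlier results of these data known. Tables at hand were of GRCm38, so no gene names, annotation or sequence were used.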

Additional observations from a re-analysis of the deposited data

How the results depend on the processing

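Each group has 1 list, so no library could be left out, and the order of its lines has no stated meaning. No paired analysis was possible because each group has 1 list and no contrast compares replicates. The reached share moved by more than its interval to 51.3% with 50% of the shorter peak overlapping, 60.1% with centres within 250 bp, 57.4% with all peaks at 200 bp, 64.5% with the first 50% and 29.7% with the wider 50% of each list, 31.9% with the first 10241 3T3 peaks, 57.0% without GFP day 0 peaks, 51.3% without peaks of either list named for GFP, 19.95% with the crossed list as background, and 69.3% within 1 kb (chosen after seeing the data). In the same order the share of 3T3 peaks in the osteoblast list moved to 11.8, 14.8, 13.7, 17.1, 7.07, 39.4, 13.4, 10.4 and 4.09%, and to 13.1% with touching peaks merged. The contrast by file order was lost with width as rank, at 1.03, and kept under 11 of 12 alternatives (1.29 to 5.50). The Jun contrast kept its call under 17 of 18 and was lost with the crossed list as background, at 0.969 (0.797 to 1.18). The chondrocyte Runx2 contrast kept its call under 17 of 17 (1.53 to 3.76), Jun in 3T3 peaks under 15 of 15 (1.57 to 4.28), and the neighbour contrast, added after seeing the data, under 7 of 7 (1.35 to 2.01). The domain contrast kept its call under 6 of 19. It was 1.06 with 50% overlap, 1.08 with centres within 250 bp, 1.07 at 200 bp, 1.04 with the first 50%, 1.10 without GFP day 0 peaks, 1.10 without either list named for GFP, 1.06 with width strata, 1.06 with no strata, 1.06 with gaps of 10 kb and 1.10 with Jun strata. It was lost at 0.986 (0.879 to 1.11) with the first 10241 3T3 peaks and at 0.949 (0.745 to 1.21) with the crossed list. With 3T3 density strata (chosen after seeing the data) it turned to 0.718 (0.638 to 0.808). A longer required overlap can only lower the 2 shares. Removing peaks leaves fewer matches in number, but shares and odds ratios can then move either way. With the first 50% of each list, for example, the reached share rose to 64.5%. Why the values moved was not tested.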
